A study of Rattus norvegicus with 96 samples.

Results

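The core of the nucleus accumbens (NAcC) was compared between rats made dependent on alcohol and rats that had never had alcohol. The members were the 8 NAcC arrays whose labels give these groups, 4 dependent and 4 naive, of 96 arrays in all. Each array measured the total RNA of a microdissected brain region from 30 or 50 ng of RNA with an Affymetrix rat expression array, and the deposited value of each probe set is a log2 signal, so that a difference of 1 is a doubling. The whole series covers 8 regions of the reward and stress circuits in 3 groups of rats. Dependent rats had self-administered 10% alcohol for 4 weeks and were then exposed to intermittent alcohol vapor for 4 weeks, with drinking sessions 6 to 8 h into withdrawal. They were killed 3 weeks after the end of vapor, in protracted abstinence. Non-dependent rats drank 10% alcohol on the same schedule without vapor, and their 4 NAcC arrays entered the fit and are given for orientation. Naive rats were of matched age and had no alcohol. Dependent and naive rats thus differ in operant training, in drinking and in vapor exposure together, and the share of each in a difference cannot be told apart. The labels name no transgene or allele, and they do not say whether an array held 1 rat or which arrays of different regions came from the same rat.

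The accumbens is the ventral part of the striatum and receives dopamine from the ventral tegmental area and glutamate from the cortex, hippocampus and amygdala. Nearly all of its neurons are medium spiny neurons, GABAergic projection cells that carry either the D1 dopamine receptor with the peptides dynorphin and substance P or the D2 receptor with adenosine receptors of the Adora2a gene and enkephalin. The core is best known for turning reward cues into action, whereas the shell, around it, is more closely tied to the extended amygdala and to stress. Both divisions take part in alcohol seeking, and the glucocorticoid receptor, which carries the stress hormone signal to the genome, is found throughout. In tissue homogenates of this kind, fewer cells of a type and less RNA per cell cannot be told apart.

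The arrays showed the tissue the labels name. The D1 receptor gene Drd1 averaged 11.41 in the NAcC, against 2.43 to 7.74 in the 6 regions outside the accumbens. The striatal phosphodiesterase Pde10a averaged 13.34, against 7.59 to 10.1 in those regions. The cortical vesicular glutamate transporter Slc17a7 was at 3.24 and the dopamine neuron genes Slc6a3 and Th were at 3.06 and 3.05, near the floor of the array. The NAcC arrays correlated with each other at 0.980 to 0.993 across genes, a description of arrays of 1 tissue. The bacterial hybridization controls read 7.48 on dependent array 3 and 8.09 on naive array 1, against 9.71 to 9.97 on the other 6. The 3′ control probe set of Gapdh ran from 9.43 (dependent array 3) to 10.77 on dependent arrays and from 10.73 to 10.91 on naive arrays (exact two-sided permutation p = 0.0857, 0.514 after adjustment over 6 array measures; the smallest p these 8 arrays allow is 0.0286).

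No gene passed the adjusted test, and the genes that led the ranking were mostly lower in dependent rats. Of 8445 genes tested, 0 (0.0%) differed at a Benjamini-Hochberg adjusted p under 0.05 in limma, and the smallest adjusted p was 0.364. At an unadjusted p under 0.05, 178 genes were higher (2.11% of those tested) and 574 were lower (6.8%) in dependent rats, 752 in all (8.9%). A pooled-variance test of each gene on the 8 arrays alone also called 0 genes after adjustment, with 124 higher and 446 lower before it. In 270 genes (3.2%) every dependent array lay below every naive array, and in 80 (0.947%) every dependent array lay above. This lean to lower values depends on the scaling. As deposited, the median difference over all genes was −0.05, 60.2% of genes had a difference below 0, and 23.7% of the genes at an unadjusted p under 0.05 were higher. After scaling each array to a common median, which gave a median difference of 0.01, 316 genes were higher and 363 lower (46.5% higher), and after quantile normalization 330 were higher and 371 lower (47.1% higher). The mean signal of the tested genes was 7.67 to 7.72 on dependent arrays, 7.68 to 7.74 on non-dependent arrays and 7.73 to 7.75 on naive arrays, so that dependent and naive arrays did not overlap in it. The larger list counts below are therefore read against the shares over all genes, which were 6.8% lower, 2.11% higher and 60.2% below 0 as deposited, and 4.39% lower, 3.91% higher and 49.7% below 0 after quantile normalization.

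Genes of mitochondrial respiration stood lower in dependent rats more often than genes overall. Oxidative phosphorylation passes electrons from NADH and succinate through complexes I to IV of the inner mitochondrial membrane to oxygen, and ATP synthase uses the proton gradient so made. Of 56 tested subunit genes, 12 were lower and 0 were higher at an unadjusted p under 0.05, 50 had a difference below 0, and in 8 every dependent array lay below every naive array. Thus 21.4% of them were lower and 89.3% below 0, against 6.8% and 60.2% of all genes, where 3.2% were lower without overlap. Their median difference was −0.16, against −0.05 over all genes. After quantile normalization 9 were lower (16.1%, against 4.39% of all genes), 45 were below 0 (80.4%, against 49.7%), and the median was −0.13.

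The promoters of the 3 subunit genes with the smallest p are printed here because the differences of these genes lead the list, and a motif search over the list follows: 300 bases around the RefSeq transcription start in the GRCr8 assembly, most of them before it, 5′ to 3′ on the gene's strand, with each match to CGGAAG or its reverse complement CTTCCG, the core recognised by ETS-family factors such as GABP, in capitals. Ndufs7 lies on chr7:10110449-10110748 (minus strand), Atp5mg on chr8:54130358-54130657 (minus strand) and Cox4i1 on chr19:65630133-65630432 (plus strand).
Ndufs7: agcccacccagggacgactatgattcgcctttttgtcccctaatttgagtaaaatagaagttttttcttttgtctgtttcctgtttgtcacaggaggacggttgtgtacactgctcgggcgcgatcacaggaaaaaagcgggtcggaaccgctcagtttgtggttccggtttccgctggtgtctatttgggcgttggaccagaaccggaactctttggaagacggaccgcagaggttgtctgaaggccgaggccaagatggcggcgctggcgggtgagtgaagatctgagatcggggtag
Atp5mg: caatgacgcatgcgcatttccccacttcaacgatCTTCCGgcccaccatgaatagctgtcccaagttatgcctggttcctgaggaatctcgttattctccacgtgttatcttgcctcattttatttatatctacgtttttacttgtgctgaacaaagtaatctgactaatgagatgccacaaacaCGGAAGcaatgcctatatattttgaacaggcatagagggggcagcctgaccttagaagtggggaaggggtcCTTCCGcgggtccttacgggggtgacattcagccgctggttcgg
Cox4i1: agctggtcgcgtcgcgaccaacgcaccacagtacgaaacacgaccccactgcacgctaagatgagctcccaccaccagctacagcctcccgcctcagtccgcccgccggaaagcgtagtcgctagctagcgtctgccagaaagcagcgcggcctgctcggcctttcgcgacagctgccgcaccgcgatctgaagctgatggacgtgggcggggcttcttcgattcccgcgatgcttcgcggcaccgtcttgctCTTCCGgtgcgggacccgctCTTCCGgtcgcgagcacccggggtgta

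The window of Ndufs7 held no match to these letters, that of Atp5mg held 3 and that of Cox4i1 held 2. Searched on both strands, the ETS core was present in 32 of the 50 oxidative phosphorylation promoters that the table held (64.0%). It was present in 30 of 56 promoters of mitochondrial ribosomal protein genes (53.6%), in 32.9% of the promoters of all tested genes and in 16.6% of all 33469 promoters. These shares describe the sequence of the windows and carry no information on which factor was bound in these rats.

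Complex I, the entry point for electrons from NADH, had all 25 of its tested subunits below 0, with a median of −0.19 and 6 at an unadjusted p under 0.05. Ndufs7, an iron-sulfur subunit of its core, read 7.15, 7.09, 7.71 and 8.26 on the 4 dependent arrays and 8.37, 8.46, 8.77 and 8.60 on the 4 naive arrays. All dependent arrays were below all naive ones, array 4 the closest. The difference was −0.995 ± 0.233 (SE), a fold of 0.502 (95% interval of the log2 difference −1.50 to −0.49, unadjusted p = 0.000841, limma adjusted p = 0.364). The other 5 complex I genes were Ndufs8 (−0.65), Ndufa11 (−0.77), Ndufv2 (−0.40), Ndufb6 (−0.35) and Ndufa6 (−0.34).

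In the ATP synthase, 11 of 12 subunit genes were below 0 (median −0.17) and 2 were past the unadjusted threshold. Atp5mg, the g subunit of the membrane part, read 4.66, 5.23, 5.51 and 4.81 on dependent arrays and 5.60, 5.71, 6.10 and 5.70 on naive arrays, a difference of −0.72 ± 0.178. The groups did not overlap, and dependent array 1 was the lowest. Atp5pb, the b subunit of the stalk, averaged 10.73 in dependent and 11.28 in naive rats (−0.55 ± 0.162), with dependent array 2 level with the lowest naive array.

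Complex IV, cytochrome c oxidase, was mixed. Cox4i1, its nuclear-encoded regulatory subunit, read 10.0, 10.19, 9.91 and 10.54 on dependent arrays and 10.77, 10.72, 10.74 and 11.28 on naive arrays, a difference of −0.72 ± 0.177 without overlap. Naive array 4 stood above the other naive arrays. Cox6a1 (−0.46) and Cox7b (−0.37) were also past the unadjusted threshold, yet only 6 of 9 subunit genes were below 0 and their median was −0.05. Complex II had 1 gene past the threshold of 4 tested, the iron-sulfur subunit Sdhb (−0.35 ± 0.116), and complex III, counted together with cytochrome c, had 0 of 6. The number of respiratory genes lower at an unadjusted p under 0.05 was 7 without dependent array 1, 7 without dependent array 2 and 19 without dependent array 4.

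**Figure D1:**
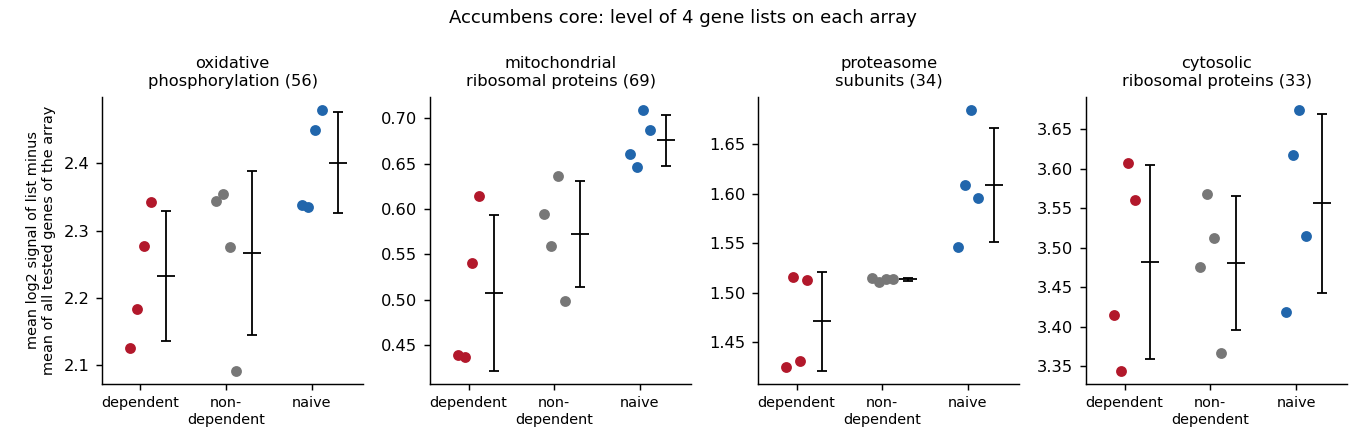
Mean log2 signal of the tested genes of each list minus the mean of all tested genes on the same array, for dependent, non-dependent and naive NAcC arrays, 1 point per array with the mean and SD of each group beside them. For oxidative phosphorylation the dependent arrays sit at 2.13 to 2.34, the non-dependent at 2.09 to 2.355 and the naive at 2.33 to 2.48.

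Taking each array's overall level away, the mean of the respiratory genes lay 2.13 to 2.34 above the array mean on dependent arrays and 2.33 to 2.48 above it on naive arrays. The groups met at their edges, dependent array 4 being level with the lowest naive arrays. Non-dependent arrays spanned 2.09 to 2.355, the range of the dependent arrays. The comparison of non-dependent with naive arrays uses the same naive arrays, so these are values side by side and not a second result.

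Nuclear genes for the mitochondrial ribosome, which translates the respiratory subunits encoded in mitochondrial DNA, stood lower as well. This list and those of the proteasome, glycolysis, the citric acid cycle and the vacuolar ATPase were chosen after the values were seen, and their counts are descriptions. Of 69 tested genes, 19 were lower and 0 higher at an unadjusted p under 0.05, 60 were below 0, and the median was −0.20. This is 27.5% lower, against 6.8% of all genes, and 87.0% below 0, against 60.2%. After quantile normalization 10 were lower (14.5%, against 4.39% of all genes) and the median was −0.14. The large subunit had 10 lower of 42 and the small subunit 9 of 27. The count was 9 without naive array 4, 10 without dependent array 1 and 12 without naive array 3. Relative to the array mean, the list lay at 0.44 to 0.61 on dependent arrays, 0.50 to 0.64 on non-dependent arrays and 0.65 to 0.71 on naive arrays, with no overlap between dependent and naive.

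Mrps27, a protein of the small mitochondrial subunit, had the smallest p of all genes tested. It read 4.51, 4.38, 4.84 and 4.64 on dependent arrays and 5.24, 5.14, 5.37 and 5.24 on naive arrays. Every dependent array lay below every naive array. The difference was −0.65 ± 0.125, a fold of 0.635 (unadjusted p = 0.000139, limma adjusted p = 0.364), and non-dependent arrays lay between at 4.87 to 5.24. Mrpl2, of the large subunit, had the list's lowest difference, −1.13 ± 0.369, with dependent arrays from 4.66 to 6.81 and naive arrays from 6.69 to 7.29. Its dependent array 4 fell inside the naive range and array 3 was far below the rest.

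Of the genes that feed carbon into the mitochondrion, a part of those of glycolysis passed the unadjusted threshold on the lower side. In glycolysis, 4 of 14 genes (28.6%, against 6.8% of all genes) were lower and 0 higher: Pfkm, the muscle-type phosphofructokinase, Gpi, glucose phosphate isomerase, Hk1, the brain hexokinase, and Eno1, enolase. Pfkm read 7.36, 7.74, 7.60 and 7.77 on dependent arrays and 8.03, 8.42, 8.36 and 8.53 on naive arrays, a difference of −0.71 ± 0.161 without overlap. Hk1 differed by −0.25 (7.92 to 8.16 on dependent and 8.16 to 8.31 on naive arrays), and the groups all but touched. The glycolysis count was 1 without naive array 4, 2 without naive array 3 and 2 after quantile normalization. By direction, 9 of the 14 were below 0 (64.3%, against 60.2% of all genes). In the pyruvate dehydrogenase and citric acid cycle list, 1 of 20 genes was lower (5%, against 6.8% of all genes). Of the 20, 16 were below 0 (80%, against 60.2%), and 16 after quantile normalization (80%, against 49.7%). The gene past the threshold was Pdk2, a kinase that switches pyruvate dehydrogenase off. Pdk2 read 5.06, 4.64, 4.60 and 4.99 on dependent arrays and 5.53, 5.55, 5.41 and 5.30 on naive arrays, again without overlap (−0.63 ± 0.141).

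The proteasome, the protease that degrades ubiquitin-tagged proteins, had 8 of 34 genes lower and 0 higher, 30 below 0, and a median of −0.15. This is 23.5% lower and 88.2% below 0, against 6.8% and 60.2% of all genes. After quantile normalization 5 were lower (14.7%, against 4.39%). By particle, 4 of 15 core and 4 of 19 regulatory genes were lower. Psmd4, a ubiquitin receptor of the regulatory particle, read 7.13, 7.79, 7.37 and 7.60 on dependent arrays and 7.95, 8.05, 8.31 and 7.82 on naive arrays (−0.56 ± 0.155). Every naive array was above every dependent one, by a narrow margin at dependent array 2. Psmb7 (−0.49) and Psma1 (−0.38), both of the core particle, were lower without overlap. The list count was 4 without naive array 2 and 5 without dependent array 1, dependent array 3 or naive array 3. Relative to the array mean the proteasome list lay at 1.43 to 1.52 on dependent, 1.51 to 1.52 on non-dependent and 1.55 to 1.69 on naive arrays.

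The vacuolar ATPase, the proton pump that acidifies synaptic vesicles and lysosomes, had 6 of 19 genes lower (31.6%, against 6.8% of all genes) and 1 higher (5.26%, against 2.11%). Only 2 were lower after quantile normalization, where 4.39% of all genes were, and 3 without naive array 4. Atp6v0e2, of the membrane part, read 11.29, 10.88, 11.22 and 11.29 on dependent arrays and 11.54, 11.51, 11.75 and 11.57 on naive arrays (−0.42 ± 0.131). Atp6ap1, an accessory subunit, was the exception, at 9.34 to 9.70 on dependent arrays and 8.99 to 9.32 on naive arrays (0.35 ± 0.121), and in both genes the groups did not overlap. Cytosolic ribosomal proteins, in contrast, had 1 of 33 genes past the unadjusted threshold (Rps15, −0.52 ± 0.219). The contrast lay in this count and not in direction. Of these 33, 29 were below 0 (87.9%, against 60.2% of all genes), a share near that of oxidative phosphorylation (89.3%) and of the proteasome (88.2%). After quantile normalization 25 were below 0 (75.8%, against 49.7%). The differences were small, with a median of −0.07 as deposited, against −0.05 over all genes.

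**Figure D2:**
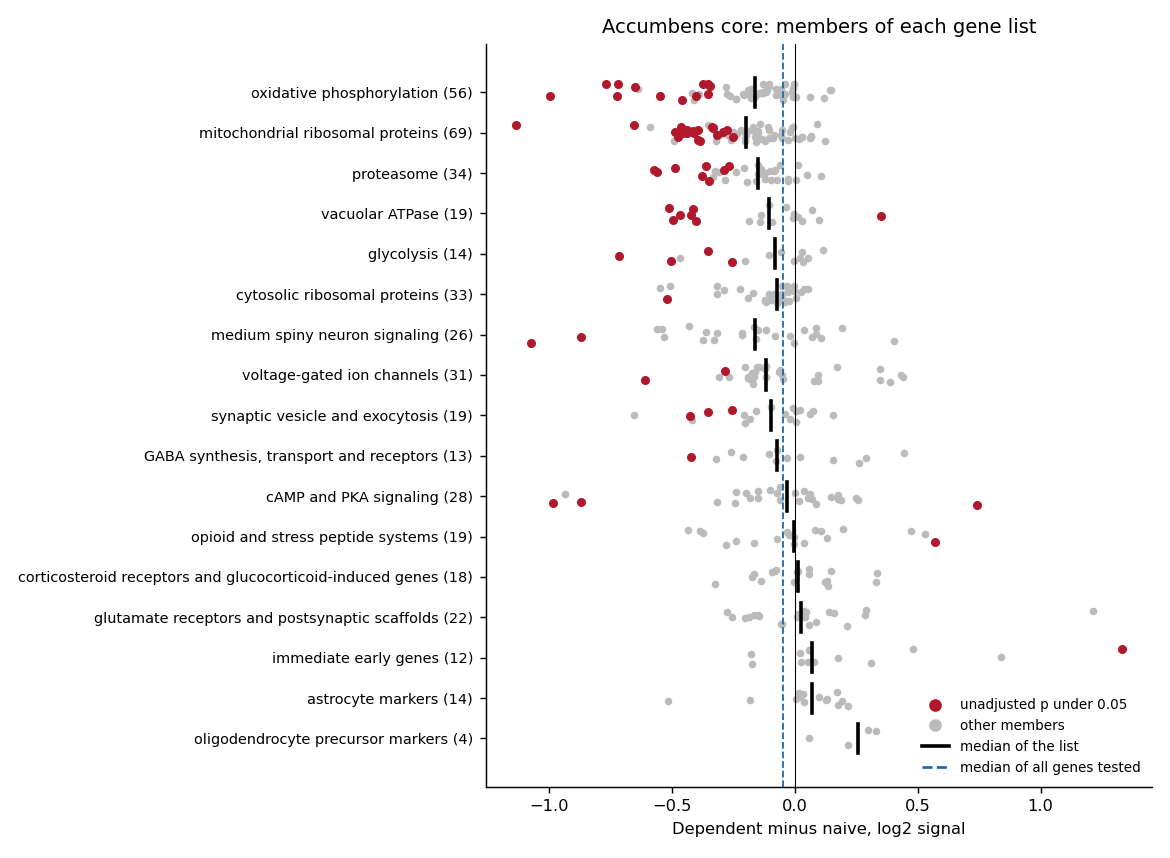
Log2 difference, dependent minus naive, of the tested members of each list (points, red at an unadjusted p under 0.05), with the list median (black bar) and the median of all tested genes (dashed line). Oxidative phosphorylation (median −0.16), mitochondrial ribosomal proteins (median −0.20) and medium spiny neuron signaling (median −0.16) lie left of the median of all genes at −0.05. Oligodendrocyte precursor markers (0.26) lie right of it.

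The 12 genes with the smallest p on the lower side all had dependent and naive arrays without overlap, as had 3.2% of all genes. They were picked by p on these same arrays, so this separation follows in large part from the choice. The 12 genes belong to different pathways. Besides Mrps27, Pdk2 and Pfkm, they include a neuronal calcium sensor, Hpcal1. It read 5.13, 5.53, 5.28 and 5.39 on dependent arrays and 6.33, 6.64, 5.88 and 6.18 on naive arrays, a difference of −0.93 ± 0.186 (fold 0.526, unadjusted p = 0.000219). The dependent arrays were close together and naive array 3 was the nearest to them. Cyp46a1, the neuronal enzyme that turns cholesterol into the form that leaves the brain, read 7.20, 7.64, 7.46 and 7.65 on dependent arrays and 8.29, 8.26, 8.35 and 8.99 on naive arrays (−0.98 ± 0.227, fold 0.505). Naive array 4 was the highest by a wide margin, and the other 3 naive arrays were still above all dependent arrays.

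Cyfip2, a member of the WAVE complex that drives actin branching at synapses, read 9.94, 10.07, 9.99 and 9.60 on dependent arrays and 10.36, 10.62, 10.42 and 11.14 on naive arrays (−0.74 ± 0.166). Non-dependent arrays, at 10.49 to 10.73, were in the naive range. Brd7, a bromodomain subunit of a SWI/SNF chromatin remodeller, was at 6.79 to 6.93 on dependent and 7.19 to 7.60 on naive arrays (−0.55 ± 0.121). Sin3b, a scaffold of histone deacetylase complexes, was at 6.48 to 7.20 on dependent and 7.48 to 7.75 on naive arrays (−0.67 ± 0.153). Neither gene's groups overlapped. Ubxn6, a cofactor of the p97 segregase, differed by −0.56, as did Nipsnap3b (−0.56). Trappc13, of a complex that tethers transport vesicles, differed by −0.45 on its brightest probe set and by 0.19 on another.

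In the circadian clock list, 2 of 15 tested genes (13.3%, against 6.8% of all genes) were lower at an unadjusted p under 0.05, Dbp and Tef, and the list median was −0.02. Dbp, a PAR bZIP factor driven by the circadian clock, read 5.001, 4.80, 4.99 and 4.97 on dependent arrays and 5.29, 5.41, 5.80 and 5.83 on naive arrays (−0.64 ± 0.136, fold 0.642). Non-dependent arrays, at 4.76 to 5.02, lay with the dependent ones. Tef, of the same family, averaged 7.19 in dependent and 7.76 in naive rats (−0.58 ± 0.198), but its groups overlapped and another probe set of Tef differed by 0.48 the other way. Hlf, another factor of this family, differed by −0.09 and did not pass the threshold. The hour at which rats were killed is not given in the sources used here.

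**Figure D3:**
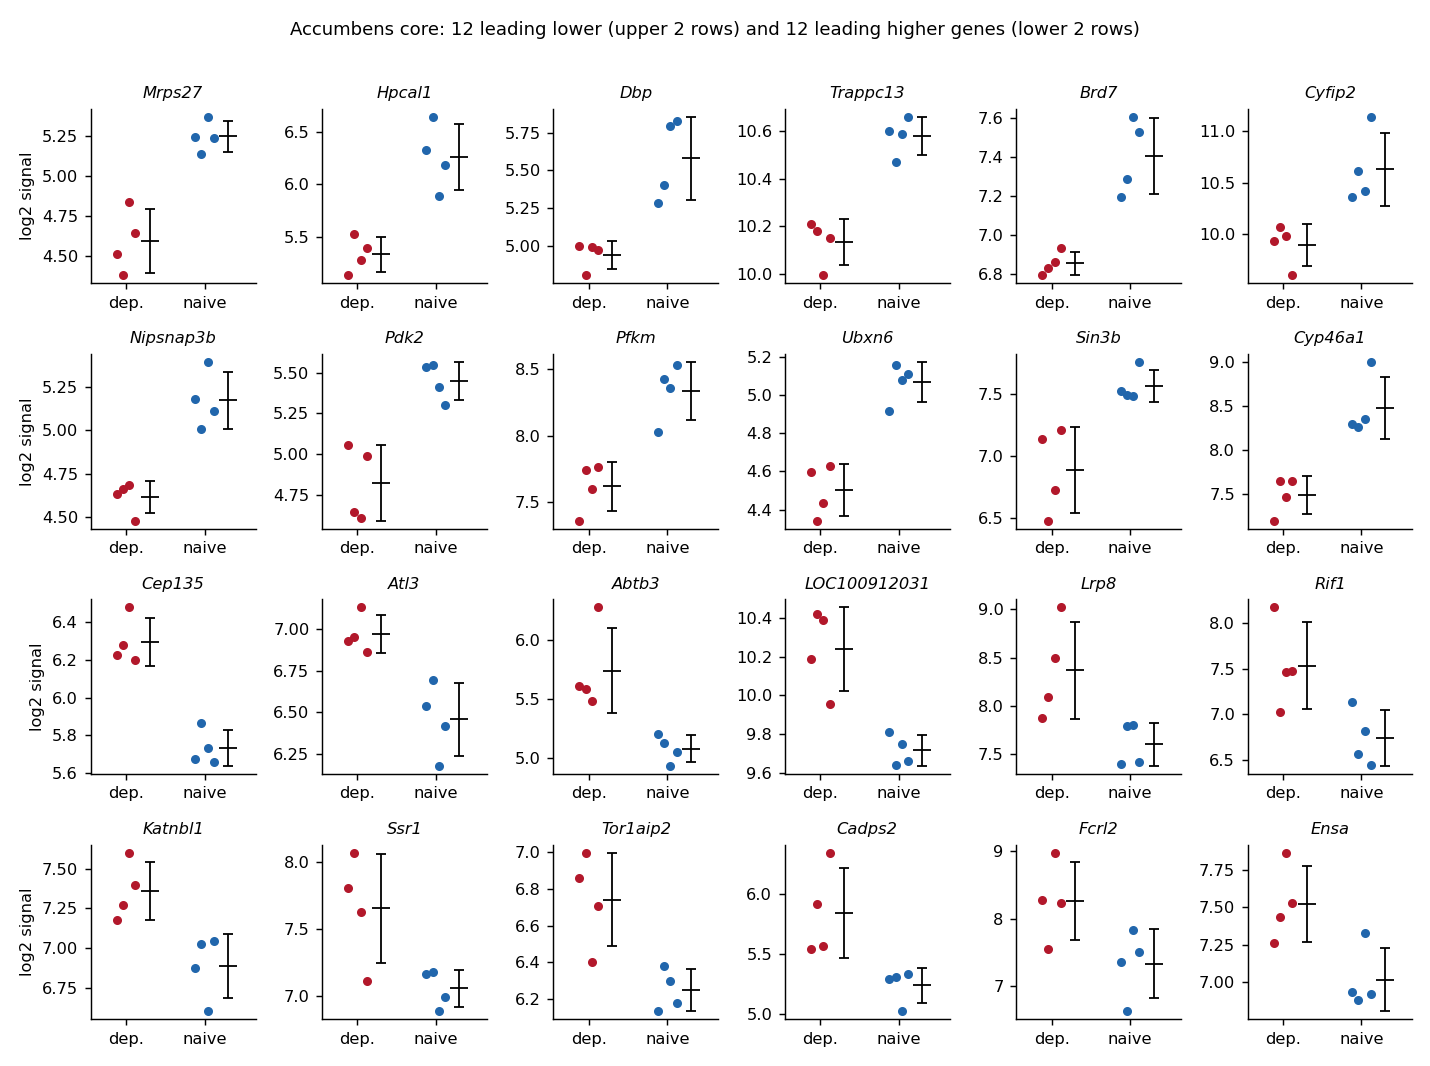
Log2 signal on each dependent (left) and naive (right) NAcC array for the 12 genes with the smallest p in each direction, with the mean and SD of each group beside its points. Mrps27 runs from 4.38 to 4.84 on dependent and from 5.14 to 5.37 on naive arrays.

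On the higher side the leading 12 genes, picked in the same way, had smaller margins. Of them, 4 (Rif1, Ssr1, Fcrl2 and Ensa) had overlapping groups, and 0.947% of all genes were higher without overlap. Cep135, a centriole protein, read 6.23, 6.28, 6.48 and 6.20 on dependent arrays and 5.67, 5.86, 5.73 and 5.66 on naive arrays, a difference of 0.56 ± 0.132 (fold 1.48, unadjusted p = 0.000872). Its groups were well apart, and non-dependent arrays, at 5.88 to 6.49, lay with the dependent ones. Lrp8, the apolipoprotein E receptor that carries the reelin signal at synapses, read 7.88, 8.09, 8.49 and 9.02 on dependent arrays and 7.40, 7.79, 7.80 and 7.42 on naive arrays (0.77 ± 0.217, fold 1.70). The groups were nearly in contact at dependent array 1. Abtb3 read 5.61, 5.58, 5.48 and 6.28 on dependent arrays and 5.20, 5.12, 4.93 and 5.04 on naive arrays (0.66 ± 0.163). Dependent array 4 stood far above the rest, and the other 3 were still above all naive arrays.

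The other leading genes on this side belong to different pathways. Atl3, a GTPase that shapes the reticulum, was at 6.86 to 7.13 on dependent and 6.18 to 6.69 on naive arrays (0.51 ± 0.124), but another probe set above the filter differed by −0.13. Cadps2, a priming factor of dense-core vesicles, was at 5.54 to 6.34 on dependent and 5.03 to 5.33 on naive arrays (0.60 ± 0.179). Ssr1, of the translocon-associated complex, was higher by 0.60, with a second probe set at −0.03. Tor1aip2, an activator of torsin ATPases, was higher by 0.49, and 1 of its 3 brighter probe sets had the opposite sign. Katnbl1, a regulator of the microtubule-severing katanin, was higher by 0.47, with non-dependent arrays (7.44 to 7.78) above most dependent ones. Rif1, a replication timing and DNA repair protein, was higher by 0.79 on its brightest probe set and level on another (0.0002). Ensa, an inhibitor of the phosphatase PP2A, was higher by 0.51 on the probe set tested and differed by −0.25 on another. The other genes named by the rule were Fcrl2 (0.93 ± 0.280) and an unnamed locus, LOC100912031 (0.52 ± 0.129), whose non-dependent arrays, at 10.15 to 10.56, reached above the dependent ones (9.95 to 10.42).

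Genes that define medium spiny neurons passed the unadjusted threshold about as often as genes overall. Of 26 tested genes, 2 were lower (7.69%, against 6.8% of all genes) and 0 higher, and 19 were below 0 (73.1%, against 60.2%). The median was −0.16, against −0.05 over all genes and −0.16 for the respiratory genes. After quantile normalization 2 were lower, 17 were below 0 (65.4%, against 49.7%), and the median was −0.15. Drd1 read 11.81, 11.78, 10.98 and 11.42 on dependent arrays and 11.21, 11.59, 11.40 and 11.64 on naive arrays. Dependent arrays spanned the naive range on both sides, with array 3 the lowest. The difference was 0.04 (95% interval −0.33 to 0.40, limma adjusted p = 0.970). The D2 receptor gene Drd2 differed by −0.08 (interval −0.37 to 0.21), and the D3 receptor gene Drd3 was below the filter, at 2.20 to 2.72 on dependent and 2.49 to 2.97 on naive arrays.

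The peptide genes of the same cells were bright in both groups. Penk, the enkephalin precursor, was at 12.75 to 13.48 on dependent and 13.21 to 13.59 on naive arrays. Pdyn, the dynorphin precursor, was at 9.63 to 10.49 on dependent and 9.98 to 10.33 on naive arrays, with a difference of −0.00 (interval −0.34 to 0.34). Tac1, the substance P precursor, differed by 0.11 (interval −0.53 to 0.75). The interval of each leaves room for differences of either sign. Oprk1, the receptor for dynorphin, read 7.79, 7.87, 7.29 and 8.13 on dependent arrays and 8.55, 8.05, 7.90 and 8.32 on naive arrays (−0.43 ± 0.203, unadjusted p = 0.0525). The groups overlapped at dependent array 4, and another probe set differed by 0.13. The mu and delta opioid receptor genes Oprm1 and Oprd1 were below the filter on all 8 arrays. Npy, neuropeptide Y, was at 8.47 to 10.38 on dependent and 9.24 to 10.06 on naive arrays, with dependent arrays on both sides of the naive ones. Crhr1 was not analysed here.

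**Figure D4:**
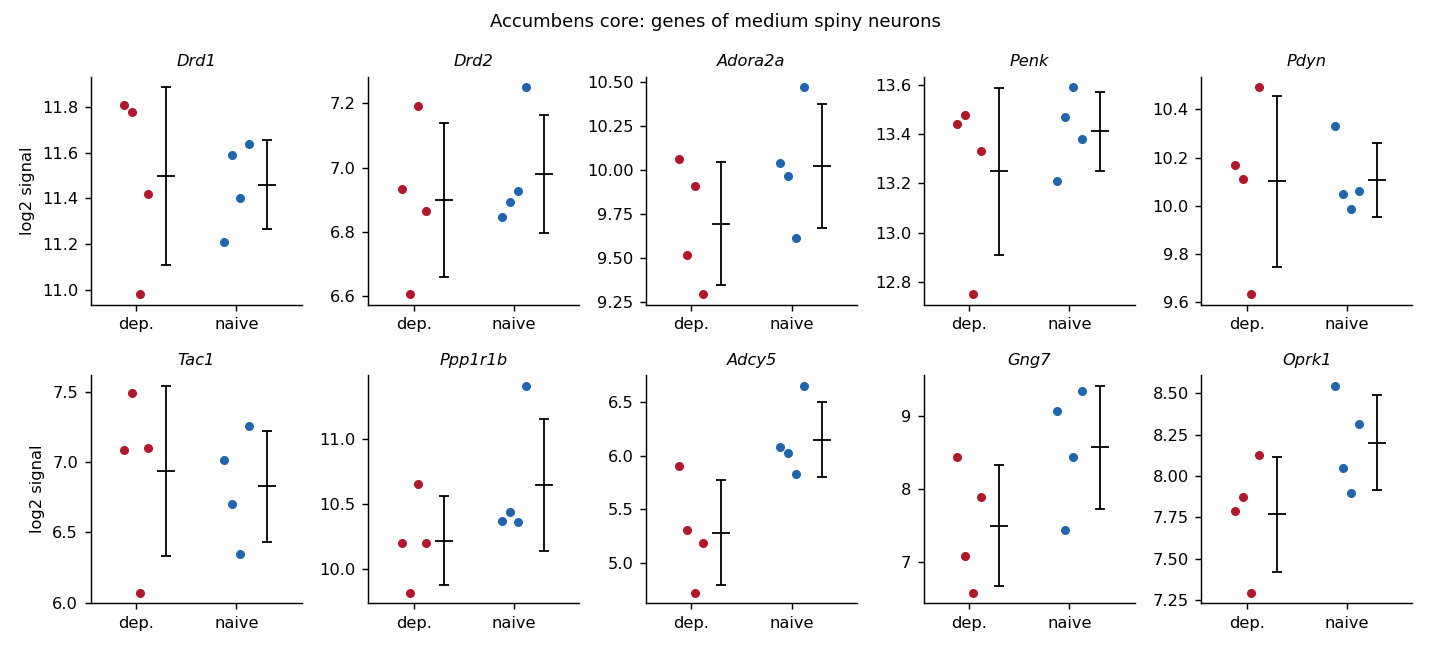
Log2 signal of medium spiny neuron genes on each dependent (left) and naive (right) NAcC array, with the mean and SD of each group beside its points. The group means of Drd1 differ by 0.04, whereas Adcy5 averages 5.28 on dependent and 6.15 on naive arrays.

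Downstream of the dopamine and adenosine receptors, genes of the cAMP list passed the unadjusted threshold about as often as genes overall. Over its 28 tested genes, 2 were lower (7.14%, against 6.8% of all genes) and 1 was higher (3.57%, against 2.11%), the same counts as after quantile normalization, with a median of −0.03. Adcy5, the adenylyl cyclase that serves both receptor classes in the striatum, read 5.91, 5.31, 4.72 and 5.19 on dependent arrays and 6.08, 6.03, 5.83 and 6.65 on naive arrays (−0.87 ± 0.303, fold 0.548, unadjusted p = 0.0129, limma adjusted p = 0.450). Only dependent array 1 reached the naive range. Gng7, the G protein gamma subunit coupled to that cyclase, read 8.44, 7.08, 6.59 and 7.90 on dependent arrays and 9.06, 7.44, 8.45 and 9.34 on naive arrays (−1.07 ± 0.449, fold 0.476). The groups overlapped widely, and non-dependent arrays, at 6.28 to 7.57, were as low as the lowest dependent ones. Prkar1b, a neuronal regulatory subunit of protein kinase A, read 8.69, 9.29, 8.85 and 9.30 on dependent arrays and 9.82, 10.0, 9.66 and 10.57 on naive arrays (−0.98 ± 0.267, fold 0.506, unadjusted p = 0.00259). All dependent arrays were below all naive ones.

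In the opposite direction, Adcy9, a widely expressed adenylyl cyclase, read 6.44, 6.16, 6.56 and 6.02 on dependent arrays and 4.59, 5.72, 6.28 and 5.62 on naive arrays (0.74 ± 0.282). Naive array 1 was far below the others and naive array 3 lay inside the dependent range. Adora2a, the striatal adenosine receptor gene, differed by −0.33 (interval −0.74 to 0.09), and Ppp1r1b, which encodes the kinase-regulated phosphatase inhibitor DARPP-32, by −0.43 (interval −0.93 to 0.07), where naive array 4 at 11.41 stood about 1 unit above the other naive arrays. The number of spiny neuron genes lower at an unadjusted p under 0.05 was 6 without dependent array 3 and 1 without dependent array 2.

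Stress hormone genes showed no group-wide shift. The study centres on the glucocorticoid receptor, and its gene Nr3c1 read 10.85, 11.18, 10.79 and 10.6 on dependent arrays and 10.88, 10.82, 10.75 and 10.98 on naive arrays. The groups overlapped fully (difference −0.00, interval −0.30 to 0.29, limma adjusted p = 0.998), and non-dependent arrays were at 10.91 to 11.34. Nr3c2, the mineralocorticoid receptor gene, differed by 0.01 (interval −0.33 to 0.36). Of 18 tested receptor and glucocorticoid-induced genes, 0 were past the unadjusted threshold in either direction in limma, as deposited or after quantile normalization, and the median was 0.01. The smallest p of the list was that of Hsd11b1, the enzyme that regenerates active glucocorticoid, picked out after its values were seen (0.33 ± 0.165, unadjusted p = 0.0662). Fkbp5, a chaperone that damps the receptor and is induced by it, came next with the opposite sign. It read 8.79, 8.66, 8.40 and 8.73 on dependent arrays and 8.86, 8.98, 8.94 and 9.11 on naive arrays, without overlap (−0.33 ± 0.174, unadjusted p = 0.0835). The induced genes Sgk1 (0.15) and Tsc22d3 (0.01) had wide, overlapping groups.

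The targets that the study's network assigns to Nr3c1 were inferred from a set of arrays that holds these, so their counts are not independent evidence of a direction. Of 292 tested targets, 22 were lower (7.53%, against 6.8% of all genes) and 4 higher (1.37%, against 2.11%) at an unadjusted p under 0.05, and the median was −0.04, close to −0.05 over all genes. After quantile normalization 11 were lower and 9 higher. Besides Trappc13, the targets with the smallest p were Nhp2, of the ribonucleoproteins that modify ribosomal RNA (−0.44 ± 0.118), Commd10 (−0.36), Amz2 (−0.34), Selenoh, a nuclear selenoprotein (−0.46), and Extl2, a glycosyltransferase (−0.48). Nhp2 read 8.89, 9.06, 8.72 and 8.53 on dependent arrays and 9.23, 9.26, 9.21 and 9.24 on naive arrays. The naive arrays were almost equal and all above the dependent ones. The lower count was 12 without dependent array 2, 13 without naive array 4 and 14 without dependent array 1, naive array 2 or naive array 3. The higher count was 7 without dependent array 2, 8 without dependent array 4 and 2 without naive array 4.

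Among genes the study names in its text, Trim28, a corepressor that silences chromatin, was lower and Smarcad1, a chromatin remodeller, was higher at an unadjusted p under 0.05, of 17 tested. This is 5.88% lower, against 6.8% of all genes, and 5.88% higher, against 2.11%. Trim28 read 5.23, 5.43, 4.90 and 6.07 on dependent arrays and 6.57, 5.92, 6.03 and 6.62 on naive arrays (−0.88 ± 0.229). The groups overlapped at dependent array 4. Smarcad1 was at 8.12 to 8.77 on dependent and 7.95 to 8.39 on naive arrays (0.35 ± 0.158). It was the only member of the 30 chromatin and DNA methylation genes past that threshold (3.33% higher, against 2.11% of all genes). Psip1, a chromatin-binding coactivator, differed by −0.04.

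At the synapse, few genes stood apart. In the vesicle list, 3 of 19 tested genes were lower at an unadjusted p under 0.05 (15.8%, against 6.8% of all genes). They were Syt4, Vamp2 and Rab3a (−0.26, −0.35 and −0.43 in that order). After quantile normalization or median scaling 0 genes of the list were past that threshold. Slc32a1, the vesicular GABA transporter, was at 9.44 to 9.95 on dependent and 9.79 to 10.32 on naive arrays (−0.42 ± 0.153), with overlap. It was the only 1 of 13 GABA genes past the threshold (7.69%, against 6.8% of all genes). Gabra2, the receptor subunit gene long studied in alcohol use, was at 10.42 to 11.14 on dependent and 10.69 to 11.04 on naive arrays, Gabrg1 ran from 6.01 to 6.79 on dependent and from 5.04 to 7.40 on naive arrays, and Gabra4 was below the filter. None of 22 glutamate receptor and scaffold genes was past the threshold, and Grin2b, an NMDA receptor subunit gene, differed by 0.04 (interval −0.63 to 0.72). Grm5, the metabotropic receptor 5 gene, could not be measured with any precision: its dependent arrays read 9.12, 5.82, 10.44 and 9.75 and its naive arrays 6.07, 5.31, 9.86 and 9.03, a difference of 1.21 ± 1.22. Arrays of both groups fell into a high and a low set. In the ion channel list, Kcnj4, an inward rectifier of striatal neurons (−0.61 ± 0.201), and Kcnd2, an A-type potassium channel (−0.28 ± 0.117), were lower. These were 2 of 31 tested genes, a share at that of all genes (6.45%, against 6.8%). After quantile normalization 1 was lower (3.23%, against 4.39%).

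The remaining lists gave few genes. In the endoplasmic reticulum, P4hb, protein disulfide isomerase, was at 8.16 to 9.04 on dependent and 9.30 to 9.62 on naive arrays (−0.80 ± 0.216). Manf, a factor secreted under reticulum stress, was at 4.35 to 5.04 on dependent and 5.12 to 5.60 on naive arrays (−0.56 ± 0.168), and Ganab, a glucosidase of glycoprotein folding, was at 4.86 to 5.09 on dependent and 4.33 to 4.70 on naive arrays (0.39 ± 0.122). None of these 3 overlapped, and they did not share a direction. Of 23 tested genes, 2 were lower (8.7%, against 6.8% of all genes) and 1 higher (4.35%, against 2.11%) at the unadjusted threshold. Without overlap 3 were lower and 1 higher, against 3.2% and 0.947% of all genes. Of the list 16 genes were below 0 (69.6%, against 60.2%). Egr2, an immediate early transcription factor, read 7.14, 9.25, 7.32 and 8.36 on dependent arrays and 7.04, 6.14, 6.16 and 7.41 on naive arrays (1.33 ± 0.562), with overlap. It was the only 1 of 12 immediate early genes past the unadjusted threshold (8.33% higher, against 2.11% of all genes). Of the 12, 10 were above 0, as were 39.8% of all genes. In the list of growth factors 1 of 15 genes was past that threshold (6.67% higher, against 2.11% of all genes). Of the 15, 11 were above 0, where 39.8% of all genes were, and the median was 0.11. The gene past the threshold, Igf1r, the receptor for insulin-like growth factor, was higher by 0.39 on the probe set tested and differed by −0.23 on another. Heat shock proteins (21 tested), ethanol and aldehyde metabolism (10) and neuroimmune genes (13) had 0 genes past the unadjusted threshold in limma in either direction.

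Marker genes of other cells did not pass the unadjusted threshold in any list as deposited. After quantile normalization 1 gene each was higher at that threshold in the oligodendrocyte precursor, cortical glutamatergic, endothelial and choroid plexus lists. These were 1 of 4, 1 of 8, 1 of 9 and 1 of 4 in that order, against 3.91% of all genes. The values that follow are as deposited. Of 14 astrocyte genes 12 were above 0, as were 39.8% of all genes, with a median of 0.07, and the list mean was 10.20 to 10.65 on dependent and 10.28 to 10.59 on naive arrays. All 4 tested oligodendrocyte precursor genes were above 0 (median 0.26), and that list lay at 1.35 to 1.53 above the array mean on dependent and 0.96 to 1.40 above it on naive arrays. The 8 cortical glutamatergic markers that were tested had a median of 0.17. Slc17a7, at 3.24 in the NAcC, was below the filter and is not among them. The 14 oligodendrocyte, 7 microglia, 9 endothelial, 4 choroid plexus, 5 interneuron, 4 dopamine neuron and 4 blood cell genes had medians between −0.06 and 0.08. The part of these shifts in the results above was not tested.

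The shell of the accumbens (NAcSh), the region most like the core, was compared by the difference between the core's and the shell's dependent minus naive values. Of 8457 genes, 0 (0.0%) differed between the regions at an adjusted p under 0.05 in limma. The smallest adjusted p was 0.251, and 441 genes (5.21%) were past an unadjusted p under 0.05. A shell array stood apart. NAcSh naive array 2 had a mean of 7.55 over the cortical glutamatergic markers and 7.40 over the spiny neuron genes, against 5.77 to 6.74 and 7.99 to 8.58 on the other 11 shell arrays. The comparisons with the shell are therefore given with and without it. Without it 0 genes passed the adjusted test, the smallest adjusted p was 0.714, and 393 genes (4.65%) were past the unadjusted threshold.

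**Figure D5:**
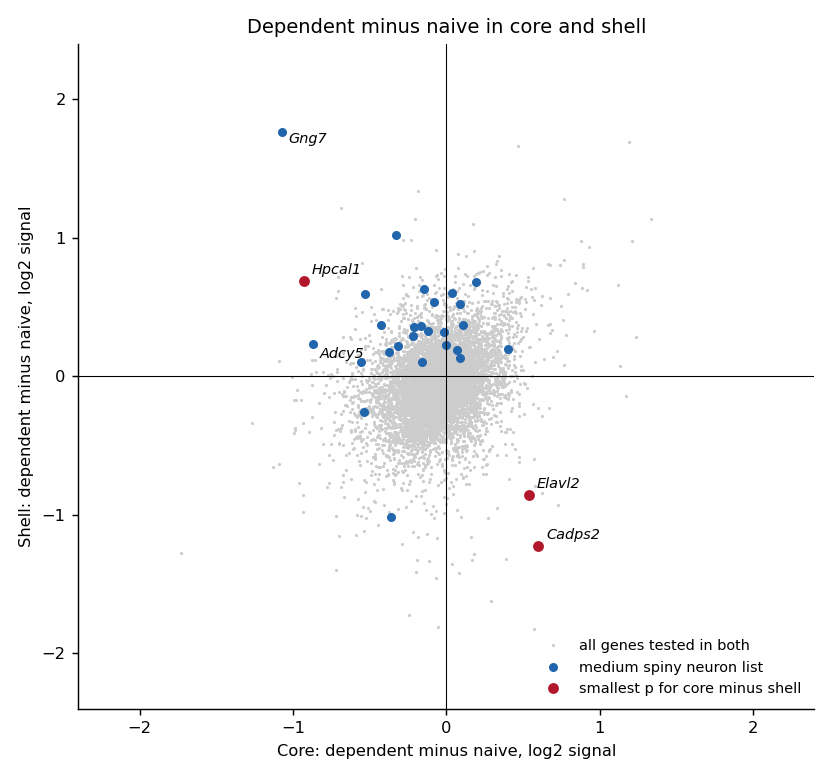
Dependent minus naive log2 difference in the core (horizontal) against that in the shell (vertical), 1 point per gene, with spiny neuron genes in blue and the 3 genes of smallest p for core minus shell in red. Hpcal1 is at −0.93 in the core and 0.69 in the shell, and Cadps2 at 0.60 and −1.23.

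Hpcal1 had the smallest p of this comparison. In the shell it read 6.53, 5.83, 5.98 and 6.85 on dependent arrays and 5.94, 5.08, 5.87 and 5.54 on naive arrays, an order opposite to that in the core. The core minus shell difference was −1.62 ± 0.309 (unadjusted p = 2.97e-05, limma adjusted p = 0.251), and −1.44 without NAcSh naive array 2. Cadps2 differed by 0.60 in the core and −1.23 in the shell. Its shell arrays read 7.77, 7.43, 8.13 and 6.92 in dependent and 8.46, 10.12, 8.31 and 8.26 in naive rats, and naive array 2 carried much of the gap (1.83 ± 0.434 with it, 1.38 without). Elavl2, a neuronal RNA-binding protein, differed by 0.54 in the core and −0.86 in the shell, a core minus shell difference of 1.40 ± 0.339, and 1.13 without that array.

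The spiny neuron genes leaned apart between core and shell, by an amount that moved with single arrays. Of the 26 genes, 6 had a negative core minus shell difference at an unadjusted p under 0.05 (Gng7, Ptpn5, Adcy5, Foxp1, Gnal and Adora2a) and 0 a positive one, against 3.02% and 2.2% of all genes, with a median of −0.52. Without NAcSh naive array 2, 2 of the 26 (Gng7 and Ptpn5) were past the threshold, against 2.3% of all genes, and the median was −0.27. The count was also 2 without NAcSh dependent array 4, 3 without NAcC naive array 4 and 14 without NAcSh naive array 1. Gng7 in the shell read 6.26, 5.93, 7.81 and 9.22 on dependent arrays and 6.93, 4.24, 5.01 and 5.96 on naive arrays, a core minus shell difference of −2.84 ± 0.915 and of −2.41 without that array. Sstr1, a somatostatin receptor gene, was the only 1 of 19 tested opioid and stress peptide genes past the unadjusted threshold in the core (5.26% higher, against 2.11% of all genes). There it was at 4.20 to 4.74 on dependent and 3.35 to 4.31 on naive arrays, with overlap (0.57 ± 0.256). Its mean over the 12 NAcC arrays was 4.16, just above the filter of 4. In the shell it was at 3.78 to 5.76 on dependent arrays and at 5.58, 5.61, 5.78 and, on naive array 2, 9.31.

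Few respiratory genes differed between core and shell. Of the 56, 0 had a positive and 2 a negative core minus shell difference at an unadjusted p under 0.05, with a median of −0.03, and the counts were the same without NAcSh naive array 2, with a median of −0.05. In the shell, fitted on its own, 10 of the 56 were lower (17.9%, against 8.22% of all genes there) and 0 higher, with a median of −0.10. Without naive array 2 of the shell, 5 were lower (8.93%, against 8.15% of all genes) and the median was −0.07. In the dorsolateral bed nucleus 9 were lower (16.1%, against 10.4% of all genes there). The medial prefrontal cortex had 6 lower, 10.7% against 10.3% of all genes, a share at its background. The ventral tegmental area had 1 lower (all genes 1.54%), the ventral bed nucleus 1 (all genes 7.35%), and the central and basolateral amygdala 0 (all genes 0.161% and 0.686% in that order). The central amygdala nevertheless had 52 of the 56 below 0, where 54.6% of all genes were below 0. Whether the core differs from those regions was not tested. Across 8287 genes shared with the shell, the moderated statistics of the same comparison correlated at 0.302, and at 0.261 across 8285 genes without NAcSh naive array 2. The values were 0.193 for the prefrontal cortex, 0.143 for the dorsolateral bed nucleus, 0.0689 for the tegmental area and for the central amygdala, −0.0479 for the basolateral amygdala and −0.0632 for the ventral bed nucleus. Genes are not independent replicates, and arrays of different regions may come from the same rats.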

How the data were processed

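Total RNA of NAcC punches was hybridised to Affymetrix rat genome arrays. The authors normalised all arrays with GCRMA (version 2.36.0 in R 3.03 per the submitters' processing notes), and the deposited values are log2 signals. Of 31099 probe sets, 20832 named 1 gene by the platform annotation, 436 several and 9831 none, and those naming several or none were left out. Each of 14218 genes was represented by its probe set with the highest mean over 96 arrays, and the 8445 with a mean above 4 over the 12 NAcC arrays were tested.

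Dependent minus naive was estimated with limma 3.58.1 in R 4.3.3 (lmFit, eBayes) in 1 fit of the dependent, non-dependent and naive arrays, with Benjamini-Hochberg adjustment over all genes tested and a threshold of 0.05. The core minus shell difference was a contrast in a fit of 24 arrays. The limma step was also run on simulated arrays whose noise was independent between genes and which held no shift of a whole array. That run does not bear on the list counts or on the lean to lower values. Array measures were compared by exact permutation of 70 arrangements. Tables and plots used Python 3.11.15 with pandas 2.3.3 and matplotlib 3.10.9. The number of arrays limits the precision, and p-values measure the spread between arrays, which may be technical in part, since the labels do not tie replicate numbers to rats.

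Genes were named by rule: the 12 smallest p in each direction, key receptor, peptide and stress genes whatever their values, up to 4 members of a list with the smallest p under 0.05, and the leading core minus shell genes. The members and lists were chosen with earlier results of these data known. The lists of mitochondrial ribosomal proteins, glycolysis, citric acid cycle, proteasome and vacuolar ATPase, and the leaving out of shell arrays, were added after the values were seen. Alternatives were other filters, scalings, probe set rules, array weights, a replicate block, a pooled-variance test of each gene and leaving out each array. The network step that the authors applied to their signals is not part of the deposited values.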

Additional observations from a re-analysis of the deposited data

Results flagged for a closer look

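In groups of 4 arrays, an array was singled out where its gap to the nearest other exceeded Dixon's critical value, which chance does in about 1 in 20 groups. Of 196 groups of values examined, 18 were so singled out, 7 among dependent and 11 among naive arrays.

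Naive array 4 was the high value for Sin3b (7.75), Cyp46a1 (8.99), Drd3 (2.97), Ppp1r1b (11.41) and Cox4i1 (11.28). Naive array 3 was high for Ensa (7.33) and low for Cadps2 (5.03) and Sgk1 (9.44). Naive array 1 was low for Hk1 (8.16) and naive array 2 for Psma1 (9.95). Dependent array 4 was high for Abtb3 (6.28) and low for Bdnf (2.04) and Psma1 (9.54). Dependent array 2 was low for Dbp (4.80) and high for Psip1 (12.11). The bacterial hybridization controls were low on dependent array 3 (7.48) and on naive array 1 (8.09), and the 3′ probe set of Gapdh was low on dependent array 3 (9.43). Drd3 and Bdnf lie below the filter, where such gaps are small in absolute terms.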

How the results depend on the processing

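The count of 0 genes at an adjusted p under 0.05 held in every alternative run, for the core and for the core minus shell difference. The smallest adjusted p of the core comparison ran from 0.0607 (without dependent array 4) to 0.755 (without naive array 4). Genes higher at an unadjusted p under 0.05 numbered 316 after median scaling, 330 after quantile normalization and 286 without a filter, against 178 as reported, and 123 (without naive array 4) to 260 (without dependent array 4) when 1 array was left out. Genes lower numbered 363, 371 and, with a filter above 6, 376, against 574 as reported, and 408 to 836 when 1 array was left out. Array weights, lowest for dependent arrays 3 (0.497) and 4 (0.446), gave 263 higher and 858 lower. With the replicate number as a block, 141 were higher and 500 lower. Same-numbered dependent and naive arrays correlated at −0.0806 to 0.151 in their deviations, and 1 of 4 correlated best with its own number, so the numbers were not taken as pairs.

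Of 1804 values of named genes under the alternatives, 40 changed sign. Outside the leaving out of arrays these were Pdyn (0.013 with array weights, 0.0997 with the mean of probe sets, 0.054 after median scaling, 0.025 after quantile normalization), Nr3c1 (0.0225 with array weights, 0.0556 after median scaling, 0.0227 after quantile normalization), Nr3c2 (−0.0060 with array weights), Tsc22d3 (−0.073 with array weights), Gabra2 (0.0020 with array weights), Grin2b (−0.061 with the mean of probe sets) and Psip1 (0.0165 after median scaling). Leaving out 1 array gave −0.066 to 0.21 for Drd1, −0.18 to 0.018 for Drd2, −0.24 to 0.0015 for Penk, −0.13 to 0.15 for Pdyn, −0.077 to 0.40 for Tac1, −0.11 to 0.084 for Nr3c1, −0.081 to 0.17 for Nr3c2, −0.16 to 0.15 for Tsc22d3, −0.051 to 0.73 for Gabrg1, −0.18 to 0.059 for Gabra2, −0.12 to 0.27 for Grin2b and −0.12 to 0.0147 for Psip1. The cause was not tested. Genes near the floor of the array, such as Oprm1 and Bdnf, could not be compared.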
